A study of Mus musculus with 8 samples.

Results

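The 10 genes described here encode the core of the transforming growth factor-beta (TGF-beta) signalling chain in the mouse: the ligand Tgfb1, the receptors Tgfbr1 and Tgfbr2, the signal-carrying Smad2 and Smad3, their partner Smad4, the inhibitory Smad6 and Smad7, and the corepressors Ski and Skil. They were taken by gene symbol from a table of 22063 genes, and all 10 were among the 10770 genes that passed the filter on low counts. The study compared RNA-seq libraries of wild-type (WT) mice, labelled as liver, in a control group (n = 4 libraries) and a group labelled control plus tranilast (n = 4 libraries). Tranilast is an anti-allergic drug that is also known as an antifibrotic agent. Per the series design both groups were fed a high-fat, high-cholesterol (HFHC) diet, a nutritional model of fatty liver inflammation, so the diet is common to both groups and no library without it was compared. The study's methods name male C57BL/6J mice that were given tranilast or its vehicle by gavage in the later part of the diet, at either of 2 doses, and neither the labels nor the methods say which dose the sequenced mice had. The labels do not say that each library came from a separate animal, so every p-value below measures the spread between these libraries, which may be technical.

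TGF-beta ligands are secreted in a latent form and, once freed, bind the receptor encoded by Tgfbr2, which then activates the receptor kinase encoded by Tgfbr1. That kinase phosphorylates the Smad2 and Smad3 proteins, which join Smad4, enter the nucleus and switch target genes, while Smad6 and Smad7 act as feedback inhibitors and Ski and Skil (SnoN) bind the Smads and recruit corepressors. In liver the pathway is best known for driving matrix production by stellate cells and for restraining the growth of hepatocytes, and macrophages are a known source of the ligand.

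Promoter sequences are shown for the ligand and the receptors, which moved in different directions, for Ski, which rose the most among the abundant members, and for Smad6, whose promoter holds the 8-base Smad palindrome at its start site. RefSeq promoters on build GRCm38.p6 matched 6 of the 10 genes by symbol, each reaching from 250 bases before to 50 bases after the start, and Tgfbr1 had 2 entries, of which the upstream one is shown. The stretches run 5′ to 3′ along the gene's own strand, from the far end of that window, except for Smad6, where the bases around the start are shown. Capitals mark GGCGC and its reverse complement GCGCC, a GC-rich motif that Smad proteins can bind, and CAGAC and its reverse complement GTCTG, the shorter Smad-binding motif. In the Smad6 stretch the palindrome GTCTAGAC alone is in capitals, and a GCGCC match there is left in lower case.
Tgfb1, chr7:25686752-25686901, plus strand, lower with tranilast: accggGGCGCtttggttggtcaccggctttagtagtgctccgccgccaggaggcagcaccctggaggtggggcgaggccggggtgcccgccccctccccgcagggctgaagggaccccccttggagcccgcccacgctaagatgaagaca
Tgfbr2, chr9:116175464-116175613, minus strand, lower with tranilast: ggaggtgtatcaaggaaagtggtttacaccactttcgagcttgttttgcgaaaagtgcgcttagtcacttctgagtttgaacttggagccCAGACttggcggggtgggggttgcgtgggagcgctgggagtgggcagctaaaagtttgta
Tgfbr1, chr4:47352972-47353121, plus strand, higher with tranilast: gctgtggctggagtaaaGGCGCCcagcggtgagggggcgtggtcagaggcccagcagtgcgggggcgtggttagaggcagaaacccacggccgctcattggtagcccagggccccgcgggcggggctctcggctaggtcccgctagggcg
Ski, chr4:155222636-155222785, minus strand, higher with tranilast: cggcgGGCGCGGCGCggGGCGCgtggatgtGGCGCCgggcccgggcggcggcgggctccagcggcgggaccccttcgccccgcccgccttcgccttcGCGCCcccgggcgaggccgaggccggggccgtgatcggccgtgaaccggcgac
Smad6, chr9:64022056-64022105, minus strand, not past the threshold: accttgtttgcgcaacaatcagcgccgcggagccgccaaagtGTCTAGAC

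In these windows the Ski stretch stood out for its base composition. It held 6 matches to GGCGC or GCGCC in 150 bases, counting matches that overlap each other, and 115 of 32851 RefSeq promoters (0.350%) held at least as many in the same stretch. The G and C content of its 300-base window was 85.3%, against a median of 52.7% over all promoters, and a GC-rich window holds such matches more easily. The Tgfb1 stretch held 1 match and the Tgfbr1 stretch 2 that overlap, where 19.3% of all promoters held at least 1. The Tgfbr2 stretch held no GGCGC match and 1 CAGAC match, which 28.7% of all promoters also had. The palindrome GTCTAGAC of Smad6 was present in 70 of the 32851 300-base windows (0.213%). A match is a description of the letters and not a bound site, and the RNA data do not show where Smad proteins bound.

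Depth ranged from 14585143 to 15618789 estimated counts over the control libraries and from 12053036 to 14679384 over the tranilast libraries, so that 3 counts, taken here as the floor of detection, stood for 0.196 to 0.239 CPM (counts relative to library size). This range and all CPM values are scaled by trimmed-mean (TMM) factors, which lay at 0.956 to 0.965 in the control and 1.037 to 1.045 in the tranilast libraries, a difference in composition that moved with treatment. The labelled tissue was checked with its markers. Of 9 hepatocyte markers, 7 had at most 3 counts in every library, Alb had 2 at most, and together they made up 1.9e-04% of the counts at most. The 10 stellate and fibroblast markers summed to 9 to 44 counts per library, with Lrat at 0 throughout, and the 8 endothelial markers to 7 to 17 counts. By contrast, 11 macrophage markers took 0.855 to 0.899% of the counts in the control and 0.818 to 0.873% in the tranilast libraries, of which 9 were tested, 2 were higher and 7 lower, while Mertk and Mrc1 had at most 3 counts. Kupffer cell markers summed to 1 to 8 counts, with Clec4f, Vsig4, Timd4 and C6 at 0. Markers of cholangiocytes (10 counts at most per library), of T and NK cells (2) and of neutrophils (2) were near 0, and the 5 B cell markers made up 0.00553 to 0.00806%, with Ms4a1 at 0 and 1 gene tested, Ighm, which was higher. The data therefore go against the liver label, and the values below describe RNA in which hepatocyte and stellate cell transcripts were nearly absent. In bulk RNA a lower value cannot be told apart between fewer cells of a type and less RNA per cell.

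With TMM factors, tranilast libraries had less RNA of the ligand and of its binding receptor, more of the signalling receptor, little change in the signal-carrying Smads, and opposite changes in the corepressor pair. By the quasi-likelihood test of edgeR, with p-values adjusted over the 10770 genes by the Benjamini-Hochberg method, 7 of the 10 members passed an adjusted p of 0.05 (called below), 4 of them higher (Tgfbr1, Smad2, Smad7 and Ski) and 3 lower (Tgfb1, Tgfbr2 and Skil), while Smad3, Smad4 and Smad6 did not pass. Of all genes tested 57.0% were called, 28.2% higher and 28.8% lower, so a gene was called more often than not across the table and the members' count is no result about them. The groups did not overlap in 7 of the 10 members, where 49.8% of all tested genes did not overlap. Asked also for a log2 fold change of 1.5 or more in either direction, 0 members passed, and 1.11% of all tested genes did. The median absolute log2 fold change was 0.25 in the members and 0.21 in all tested genes. The split of all calls depended on the scaling: 49.5% were higher with TMM factors, 62.6% with upper-quartile factors, 70.9% with library size alone and 43.1% with a trend in GC content and length removed, and the median log2 fold change of all genes shifted by 0.12 between TMM and library size alone. Relative to that median the members' log2 fold changes were the same to 2 decimals with TMM, RLE and upper-quartile factors and library size alone. Such factors move all genes by nearly the same amount, so this sameness was fixed in advance and is no test of the scaling. The values were -0.26 for Tgfb1, 0.23 for Tgfbr1, -0.29 for Tgfbr2, 0.51 for Ski and -0.36 for Skil.

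**Figure D1:**
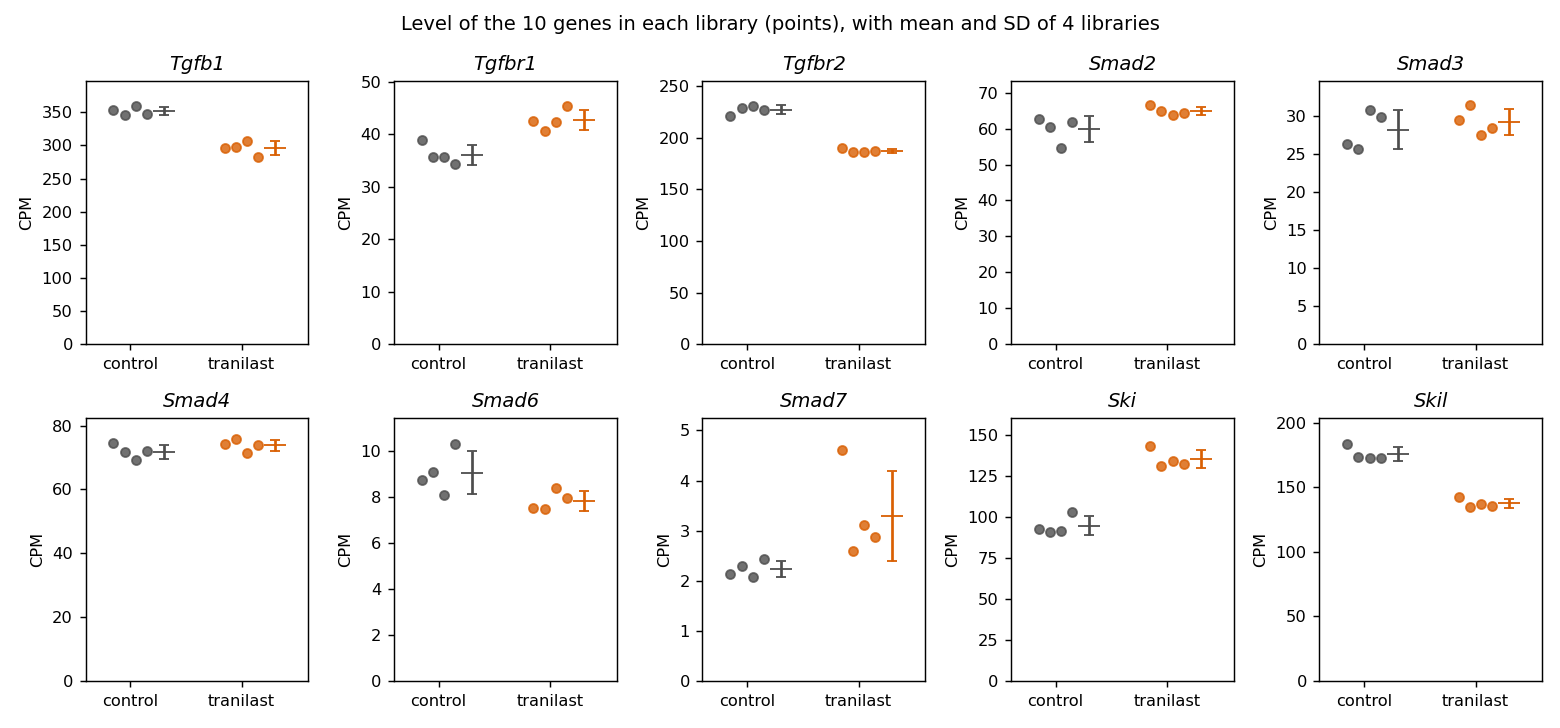
Level of each of the 10 genes in CPM, on a linear axis from 0, in the 4 control libraries (grey points) and the 4 tranilast libraries (orange points), with the mean and SD of each group beside them. The groups are apart in Tgfb1, Tgfbr2, Ski and Skil, closer together in Tgfbr1, Smad2 and Smad7, and mixed in Smad3, Smad4 and Smad6, and tranilast replicate 1 stands at 4.61 CPM for Smad7 above the other libraries.

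Tgfb1 encodes the ligand (ENSMUSG00000002603, chromosome 7, 25687002 to 25705077, plus strand, GRCm38). It stood at 354, 346, 360 and 348 CPM in the control libraries and at 296, 298, 307 and 283 CPM in the tranilast libraries. Every tranilast library lay under every control library, and the spread within each group was small beside the gap. The mean fell from 352 ± 6.47 to 296 ± 9.74 CPM (SD, n = 4 each), a change of -15.9% and a log2 fold change of -0.25 (SE, the standard error, 0.030, edgeR adjusted p = 1.3e-06, and p = 0.0286 by the exact two-sided permutation test over libraries, the smallest that 4 against 4 can give). The direction and the call of Tgfb1, Tgfbr1, Tgfbr2, Ski and Skil held under all 19 alternatives, although with library size alone the log2 fold change was -0.13 for Tgfb1, -0.16 for Tgfbr2 and 0.36 for Tgfbr1, and for Skil it was -0.17 with log2 FPKM plus 1.

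Among the receptors, Tgfbr2 and Tgfbr1 moved in opposite directions. Tgfbr2, which binds the ligand (ENSMUSG00000032440, chromosome 9, 116084293 to 116175360, minus strand), was at 221, 229, 231 and 227 CPM in the control and 190, 186, 186 and 187 CPM in the tranilast libraries. No library of one group reached the range of the other, and the tranilast libraries were within a few CPM of each other. Its mean fell from 227 ± 4.28 to 187 ± 1.86 CPM, with a log2 fold change of -0.28 (SE 0.030, edgeR adjusted p = 3.0e-07, exact permutation p = 0.0286). Tgfbr1, the kinase that carries the signal on (ENSMUSG00000007613, chromosome 4, 47353222 to 47414931, plus strand), was at 38.8, 35.6, 35.6 and 34.4 CPM without and 42.6, 40.6, 42.4 and 45.3 CPM with tranilast. The highest control library came close to the lowest tranilast library without reaching it. Its mean rose from 36.1 ± 1.89 to 42.7 ± 1.93 CPM, with a log2 fold change of 0.24 (SE 0.057, edgeR adjusted p = 0.00134, exact permutation p = 0.0286).

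With TMM factors the Smads that carry the signal changed little. Smad2 (ENSMUSG00000024563, chromosome 18, 76241580 to 76310963, plus strand) had 62.7, 60.4, 54.5 and 61.8 CPM in the control and 66.6, 65.0, 63.8 and 64.3 CPM in the tranilast libraries, which did not overlap although the nearest libraries were about 1 CPM apart. The log2 fold change was 0.12 (SE 0.049, edgeR adjusted p = 0.0495, exact permutation p = 0.0286), so the call lay at the threshold. It was lost without control replicate 3, the lowest control library (log2 fold change 0.07, adjusted p = 0.19), and without control replicate 2 or any 1 tranilast library (0.11 to 0.13, adjusted p from 0.0576 to 0.105), and with the trend in GC content and length removed the log2 fold change was 0.01. Smad3 (ENSMUSG00000032402, chromosome 9, 63646767 to 63757994, minus strand) had 26.4, 25.7, 30.9 and 29.9 CPM in the control and 29.5, 31.5, 27.6 and 28.5 CPM in the tranilast libraries. Those ranges lay across each other. The log2 fold change of Smad3 was 0.05 (SE 0.074, edgeR adjusted p = 0.559), and it turned to -0.002 with the GC and length trend removed. Smad4, the shared partner (ENSMUSG00000024515, chromosome 18, 73639009 to 73703780, minus strand), had 74.4, 71.7, 69.1 and 72.1 CPM in the control and 74.1, 75.7, 71.5 and 73.9 CPM in the tranilast libraries, also overlapping. Its log2 fold change of 0.04 (SE 0.042, edgeR adjusted p = 0.433) depended on scaling, rising to 0.16 with library size alone, where it was called, and turning to -0.01 with the GC and length trend removed.

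The inhibitory Smads were the least abundant members. Smad6 (ENSMUSG00000036867, chromosome 9, 63953076 to 64022059, minus strand) had 8.74, 9.10, 8.08 and 10.3 CPM in the control and 7.52, 7.45, 8.38 and 7.96 CPM in the tranilast libraries, so that the lowest control library lay inside the tranilast range. Its log2 fold change of -0.21 (SE 0.12, edgeR adjusted p = 0.139, exact permutation p = 0.0571) did not pass. Smad7 (ENSMUSG00000025880, chromosome 18, 75367529 to 75395935, plus strand) rested on few reads, 30, 33, 31 and 35 counts in the control and 65, 36, 39 and 44 in the tranilast libraries. In CPM these were 2.13, 2.29, 2.07 and 2.44 against 4.61, 2.60, 3.11 and 2.87, without overlap, but with 1 tranilast library well above the other 3. The log2 fold change was 0.56 (SE 0.22, edgeR adjusted p = 0.0392, exact permutation p = 0.0286). Without that library, tranilast replicate 1, it was 0.36 (adjusted p = 0.195), and the call was also lost without any 1 control library (0.52 to 0.61, adjusted p from 0.0515 to 0.0893) or without tranilast replicate 3 (0.59, adjusted p = 0.0522). On the FPKM scale its log2 change was 0.29 at most and not called, so the rise of Smad7 depended on the processing.

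Ski and Skil, the paired corepressors, gave the clearest contrast. Ski (ENSMUSG00000029050, chromosome 4, 155154075 to 155222592, minus strand) was at 92.7, 90.9, 91.1 and 103 CPM in the control libraries and at 143, 131, 134 and 132 CPM in the tranilast libraries. Even the highest control library, replicate 4, was far under the lowest tranilast library. The mean rose from 94.4 ± 5.76 to 135 ± 5.43 CPM, 1.43-fold, with a log2 fold change of 0.52 (SE 0.045, edgeR adjusted p = 2.2e-08, exact permutation p = 0.0286). Skil (ENSMUSG00000027660, chromosome 3, 31095058 to 31122577, plus strand) was at 184, 174, 173 and 173 CPM in the control and at 143, 135, 137 and 136 CPM in the tranilast libraries. Here the tranilast libraries were all under the control libraries. The mean fell from 176 ± 5.43 to 138 ± 3.53 CPM, a change of -21.7% and a log2 fold change of -0.35 (SE 0.035, edgeR adjusted p = 1.1e-07, exact permutation p = 0.0286). In the GENCODE M21 annotation none of the 10 members shared exons with another gene, and which annotation was used for counting is not given.

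**Figure D2:**
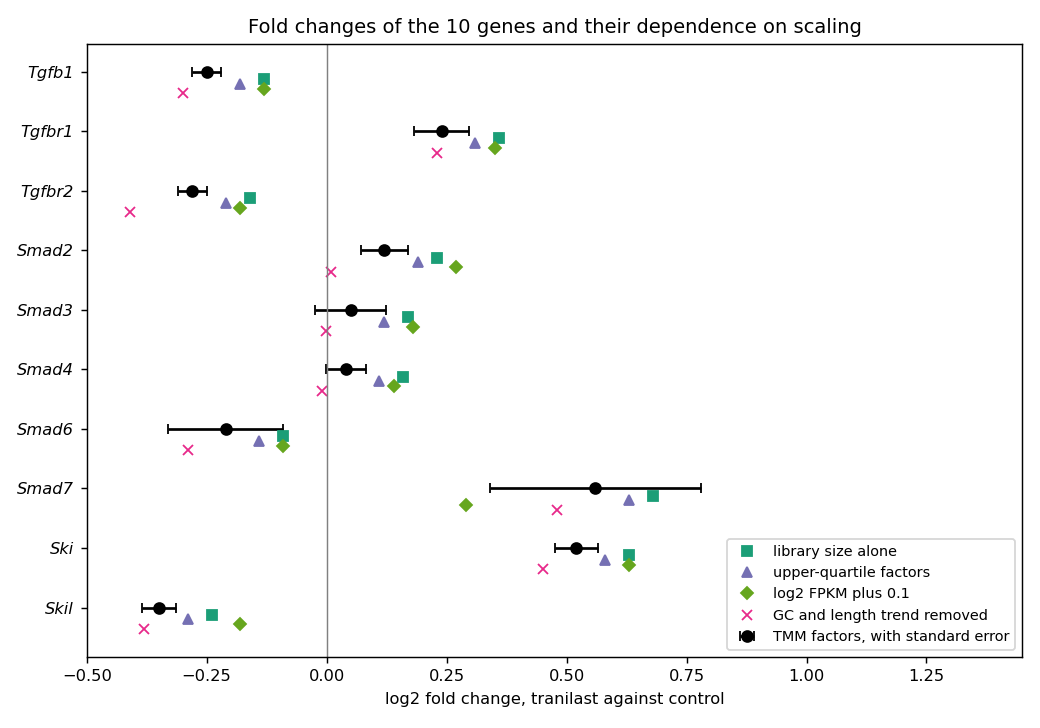
Log2 fold change of each member, tranilast against control, with TMM factors and its standard error (black circles with bars, 4 libraries per group) and under 4 other scalings (coloured symbols). Tgfb1, Tgfbr2 and Skil stay left of 0 and Tgfbr1 and Ski right of 0 under every scaling, while Smad3 and Smad4 turn from 0.05 and 0.04 to -0.002 and -0.01 with the GC and length trend removed.

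Ratios between members within a library do not depend on library size or scaling factors, and are given as a description with no test. The log2 ratio of Ski to Skil counts was -0.99, -0.94, -0.92 and -0.75 in the control libraries and lay between -0.05 and 0.00 in the tranilast libraries, a difference of 0.87 in the means. Skil thus had more counts than Ski in each control library and about as many in each tranilast library. The log2 ratio of Tgfbr1 to Tgfbr2 counts ranged from -2.72 to -2.51 in the control and from -2.19 to -2.05 in the tranilast libraries, so that the signalling receptor gained on the binding receptor in every library (difference 0.52). For the ligand and its binding receptor the ranges lay across each other: Tgfb1 to Tgfbr2 was 0.59 to 0.68 in the control and 0.60 to 0.72 in the tranilast libraries, with a difference of 0.03. Smad7 to Smad6 ranged from -2.08 to -1.96 without and from -1.52 to -0.71 with tranilast, the highest value being that of tranilast replicate 1. Against Smad4, which was not called, Ski gained 0.48 and Skil lost ground (difference -0.39), both with no overlap between the groups.

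**Figure D3:**
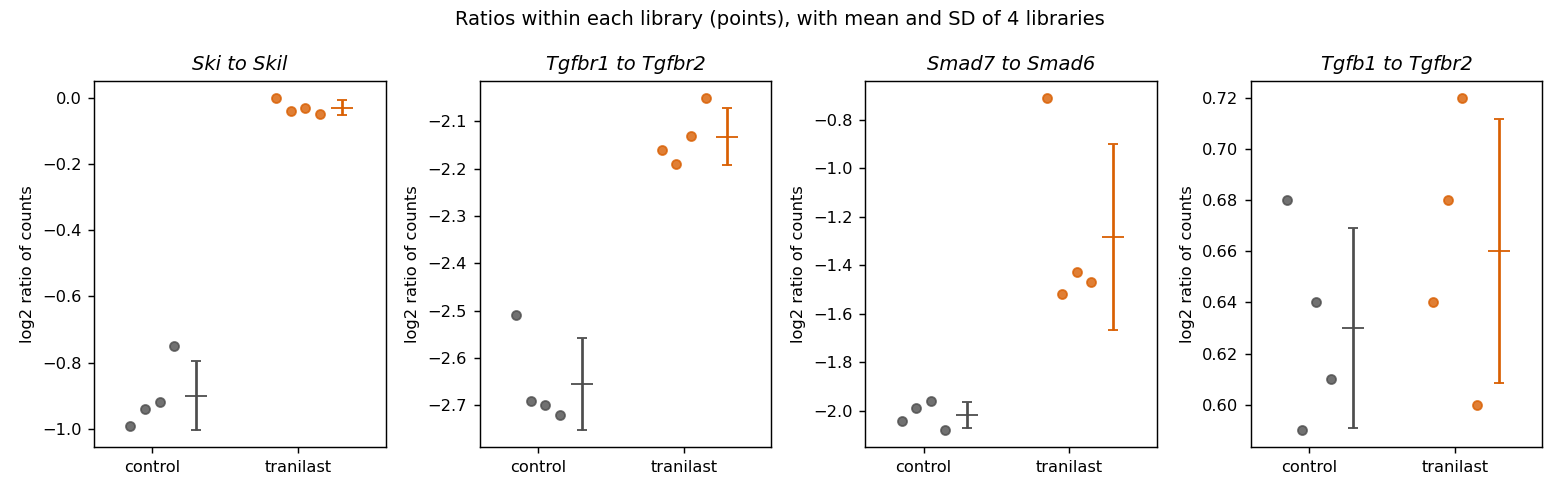
Log2 ratio of estimated counts of 2 genes in the same library, for the 4 control (grey) and 4 tranilast (orange) libraries, with the mean and SD of each group. The vertical axes differ between panels and do not start at 0. Ski to Skil moves from a mean of -0.90 to -0.03 and Tgfbr1 to Tgfbr2 from -2.66 to -2.13, while the values of Tgfb1 to Tgfbr2 lie across each other.

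Levels of different genes were compared per transcript length, on the FPKM scale. Tgfb1 was the most abundant member at 149 FPKM (mean of 8 libraries), above 96.0% of the genes tested, and no library of another member reached its range of 136 to 159 FPKM. Tgfbr2 followed at 43.0 FPKM and Skil at 36.3 FPKM. Over all 8 libraries their ranges overlapped, but within each group they did not, with Tgfbr2 at 44.8 to 46.3 and Skil at 34.8 to 41.6 FPKM in the control and at 39.8 to 40.9 and 32.4 to 36.0 FPKM in the tranilast libraries. Smad2 at 26.8, Smad4 at 24.0 and Ski at 21.2 FPKM came next. The place of Ski depended on the group: it was at 18.2 FPKM at most in the control, under every Smad4 value (22.4 to 23.2 FPKM), and at 25.1 to 27.1 FPKM with tranilast, where Smad4 was at 24.0 to 26.2 FPKM. Tgfbr1 at 7.55 and Smad3 at 6.43 FPKM followed, with ranges that overlapped in the control group but not in the tranilast group, while Smad6 at 2.84 FPKM and Smad7 at 0.756 FPKM, above 5.37% of the genes tested, were each apart from the member before. Skil made up 69.8% ± 1.97 of the summed Ski and Skil FPKM in the control group and 56.9% ± 0.482 in the tranilast group (SD, n = 4 each), with ranges of 67.7 to 71.7% and 56.3 to 57.5%. Smad6 and Smad7 together came to 6.79% ± 0.906 of the summed Smad2, Smad3 and Smad4 FPKM in the control and 5.83% ± 0.284 in the tranilast group, with overlapping ranges. The sum of Smad6 and Smad7 was 3.60 ± 0.447 FPKM in the control and 3.58 ± 0.202 FPKM in the tranilast group. That of Smad2, Smad3 and Smad4 rose from 53.1 ± 0.572 to 61.4 ± 0.952 FPKM without overlap. With log2 FPKM plus 1 the median log2 fold change of all tested genes was 0.103.

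**Figure D4:**
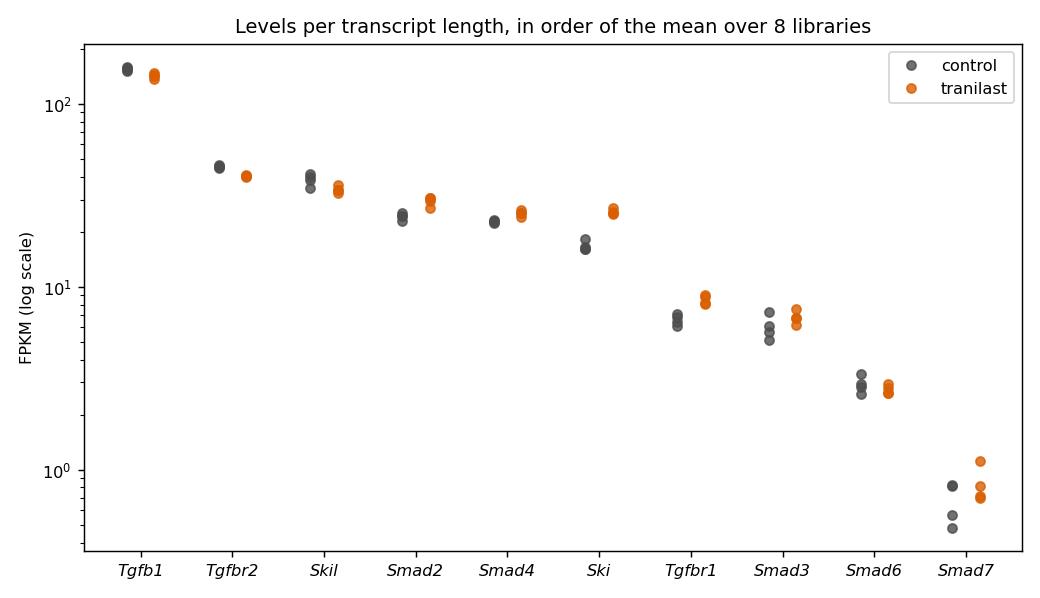
FPKM of each member on a log axis in the 4 control (grey) and 4 tranilast (orange) libraries, ordered by the mean over 8 libraries. Levels span from 0.481 FPKM for Smad7 in a control library to 159 FPKM for Tgfb1 in a control library.

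The wider pathway was described with 91 further genes, of which 62 were tested, 19 were higher, 18 were lower and 25 were not called, a called share of 59.7% against the 57.0% of all genes. Their median absolute log2 fold change was 0.21, the same as that of all tested genes. Lrrc32, Usp11 and Id1 were among the genes with the larger changes.

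Of 13 genes for other ligands and for the handling of latent TGF-beta, 5 were tested, 1 was higher and 3 were lower. Tgfb2 had 2 counts at most in any library and Tgfb3 had 4, so Tgfb1 was the one TGF-beta ligand gene above the filter. Lrrc32 (GARP), which holds latent TGF-beta at the cell surface, had 23, 26, 29 and 15 counts in the control and 4, 6, 6 and 3 in the tranilast libraries. All tranilast libraries were near the floor and under every control library, with a log2 fold change of -2.21 (SE 0.39, edgeR adjusted p = 1.1e-04). Nrros, which has the same role in macrophages and microglia, was far more abundant and fell from 220 ± 2.97 to 184 ± 7.76 CPM (log2 fold change -0.25, edgeR adjusted p = 5.1e-06). Itgav, the alpha subunit of integrins that release the ligand, was also lower (-0.19, edgeR adjusted p = 3.4e-04), a call lost with library size alone (-0.07) and on the FPKM scale (-0.06). The partners listed with it, Itgb6 and Itgb8, and the activator Thbs1 had 3 counts at most, and Ltbp1 had 2. Another integrin subunit, Itgb5, was higher and is given below among the target genes. Furin, the protease that cleaves the ligand precursor, rose from 75.6 ± 1.69 to 89.3 ± 2.51 CPM (0.24, edgeR adjusted p = 6.0e-05).

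The co-receptor Tgfbr3 (betaglycan) had 1 count at most and the decoy receptor Bambi 3, while the co-receptor Eng (endoglin) had 57 to 112 counts, at 5.45 ± 1.12 CPM in the control and 7.05 ± 1.24 CPM in the tranilast group, and did not pass (log2 fold change 0.36, edgeR adjusted p = 0.0759). Of the 5 genes tested from this list of 7, Fkbp1a, whose protein (FKBP12) holds the Tgfbr1 kinase inactive, fell from 279 ± 7.77 to 214 ± 9.08 CPM without overlap (log2 fold change -0.38, edgeR adjusted p = 3.1e-08), and Strap, which links the receptors to Smad7, fell as well (-0.27, edgeR adjusted p = 3.5e-06). Tgfbrap1, a receptor-associated chaperone of Smad4, rose (0.24, edgeR adjusted p = 8.1e-04), and Acvrl1 did not pass (0.12, edgeR adjusted p = 0.200).

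Of 7 Smad cofactors, 6 were tested. Ep300, the acetyltransferase that serves as Smad coactivator, stood at 257 to 281 CPM in the control and 205 to 211 CPM in the tranilast libraries, a log2 fold change of -0.36 (SE 0.032, edgeR adjusted p = 2.4e-08). Its paralog Crebbp did not pass (-0.00, edgeR adjusted p = 0.959). Zfyve16 (endofin), an endosomal Smad anchor, rose (0.29, edgeR adjusted p = 3.8e-04). Trim33, which binds Smad2 and Smad3, was higher by 0.13 (edgeR adjusted p = 0.0186) with overlapping groups, and its call was lost without control replicate 2 (0.10, adjusted p = 0.0628) or 3 (0.11, adjusted p = 0.0612) or tranilast replicate 3 (0.11, at the threshold), with the GC and length trend removed (0.01, adjusted p = 0.775) and on both FPKM scales (0.12 each). Foxh1, the partner of Smad2 in the early embryo, had 0 counts in all 8 libraries.

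Genes for turnover and feedback gave 4 higher and 2 lower of 11 tested. The higher ones included some of the ubiquitin ligases that remove receptors and Smads: Smurf1 rose from 25.1 ± 0.801 to 34.0 ± 1.83 CPM (log2 fold change 0.44, edgeR adjusted p = 1.3e-05), Wwp1 from 35.1 ± 1.70 to 45.4 ± 2.50 CPM (0.37, edgeR adjusted p = 2.5e-05) and Smurf2 from 58.5 ± 2.22 to 71.2 ± 0.897 CPM (0.28, edgeR adjusted p = 2.4e-05). None of these had overlapping groups. Their relative Wwp2 was lower (-0.30, edgeR adjusted p = 5.7e-05), as was Usp15, a deubiquitinase of receptors and Smads (-0.23, edgeR adjusted p = 2.3e-05). Usp11, another deubiquitinase, was scarce, at 0.668 to 2.13 CPM in the control and 2.87 to 4.27 CPM in the tranilast libraries, with a log2 fold change of 1.35 (SE 0.28, edgeR adjusted p = 5.5e-04). Pmepa1, a feedback target that sequesters the Smads, did not pass (-0.01, edgeR adjusted p = 0.951), and Ldlrad4 had 1 count at most.

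Partners of Ski and Skil in corepressor complexes were all tested, and 2 of 9 were higher and 4 lower. Tgif1, a Smad corepressor, rose from 44.6 ± 3.07 to 56.0 ± 1.91 CPM (log2 fold change 0.33, edgeR adjusted p = 5.1e-05) and Gps2 rose as well (0.29, edgeR adjusted p = 8.1e-04). Tbl1x, a subunit of the NCoR complex, fell (-0.31, edgeR adjusted p = 5.2e-07), and its paralog Tbl1xr1 was lower (-0.28, edgeR adjusted p = 3.5e-04) on counts but turned to 0.08 on the FPKM scale. Tgif2 was lower (-0.28, edgeR adjusted p = 0.0241), and its call was lost without control replicate 1 (-0.24, adjusted p = 0.0712) or tranilast replicate 4 (-0.20, adjusted p = 0.108), with upper-quartile factors (-0.22) or library size alone (-0.17) and on the FPKM scales (-0.23 to -0.20). Sin3a was at the threshold (-0.10, edgeR adjusted p = 0.0494), lost its call without control replicate 1 or 4 or any 1 tranilast library (-0.11 to -0.07, adjusted p from 0.0668 to 0.178) and turned to 0.01 with library size alone. The scaffold Ncor1 (0.00) did not pass.

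Among 14 textbook TGF-beta target genes, 7 were tested, 3 were higher and 1 was lower. The higher ones were the cell-cycle inhibitor Cdkn1a, which rose from 361 ± 25.1 to 442 ± 23.9 CPM (0.29, edgeR adjusted p = 1.9e-05), the transcription factor Zeb2 from 215 ± 4.73 to 254 ± 12.5 CPM (0.24, edgeR adjusted p = 1.8e-05) and the integrin subunit Itgb5 from 64.6 ± 3.82 to 79.9 ± 5.90 CPM (0.31, edgeR adjusted p = 1.4e-04). Junb (0.05, edgeR adjusted p = 0.292), Bhlhe40 (-0.06, edgeR adjusted p = 0.320) and Snai2 (0.05, edgeR adjusted p = 0.934) did not pass, and each turned sign under at least 1 alternative, Junb to -0.02 with the GC and length trend removed, Bhlhe40 to 0.05 with library size alone and Snai2 to -0.24 without tranilast replicate 2. Junb was called without control replicate 3 (0.10, edgeR adjusted p = 0.027), with upper-quartile factors (0.12, edgeR adjusted p = 0.0137), with library size alone (0.17, edgeR adjusted p = 0.00113) and on both FPKM scales (0.17 each). The targets that did not pass the filter had few or no reads. Ccn2 had 3 counts at most, Ccn1, Tgfbi and Snai1 had 2 and Cdkn2b had 0, all at the floor. Fn1 had 12 counts at most and Zeb1 had 5, which is above the floor. In a panel of 5 profibrotic genes used for qPCR of liver, Tgfb1 was the one above the filter, and Col1a1 had 0 to 4 counts, Acta2 0 to 23, Timp1 4 to 11 and Ccn2 0 to 3.

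The related BMP and activin branch, which shares Smad4, Smad6 and Smad7, gave 4 higher and 4 lower of 11 tested. The lower ones included the Id genes, inhibitors of basic helix-loop-helix factors and targets of the BMP Smads. Id1 was at 19.9, 18.2, 20.2 and 13.9 CPM in the control and at 10.1, 9.48, 10.9 and 9.98 CPM in the tranilast libraries, a non-overlapping fall with a log2 fold change of -0.84 (SE 0.12, edgeR adjusted p = 6.7e-06). Id3 (-0.31, edgeR adjusted p = 0.00458) and Id2 (-0.41, edgeR adjusted p = 0.0216) were lower with overlapping groups. Both calls were lost with library size alone (-0.20 for Id3 and -0.29 for Id2) and on the FPKM scales (-0.20 to -0.19 and -0.34 to -0.30), and that of Id2 also with upper-quartile factors (-0.34). The Id2 call was lost without control replicate 2 or any of tranilast replicates 1, 2 and 3 (-0.38 to -0.32, adjusted p from 0.0524 to 0.0747). Smad5, a BMP Smad, rose (0.23, edgeR adjusted p = 0.00241), as did the receptors Acvr2a (0.31, edgeR adjusted p = 0.0138) and Bmpr2 (0.16, edgeR adjusted p = 0.0198). Acvr2a lost its call without tranilast replicate 3 (0.25, adjusted p = 0.0518), and Bmpr2 without control replicate 2 or 4 (0.12 each, adjusted p = 0.0739 and 0.0737) or tranilast replicate 3 (0.15, adjusted p = 0.054) and with the GC and length trend removed (0.05). The ligand genes Bmp4, Bmp7 and Inhba had 1 count at most, and Bmp6 and Inhbb had 0.

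All 8 genes of the non-Smad branch, through which the receptors also reach the p38 kinases, were tested, 2 were higher and 1 was lower. Map3k7 (TAK1) rose by 0.12 (edgeR adjusted p = 0.0150) and Map2k3 by 0.14 (edgeR adjusted p = 0.0106) on the log2 scale, both with overlapping groups. Tab2, an adaptor of TAK1, was lower (-0.16, edgeR adjusted p = 0.00212), a call lost with library size alone (-0.05) and on both FPKM scales (-0.01 each), and that of Map3k7 was lost with the GC and length trend removed (0.09).

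**Figure D5:**
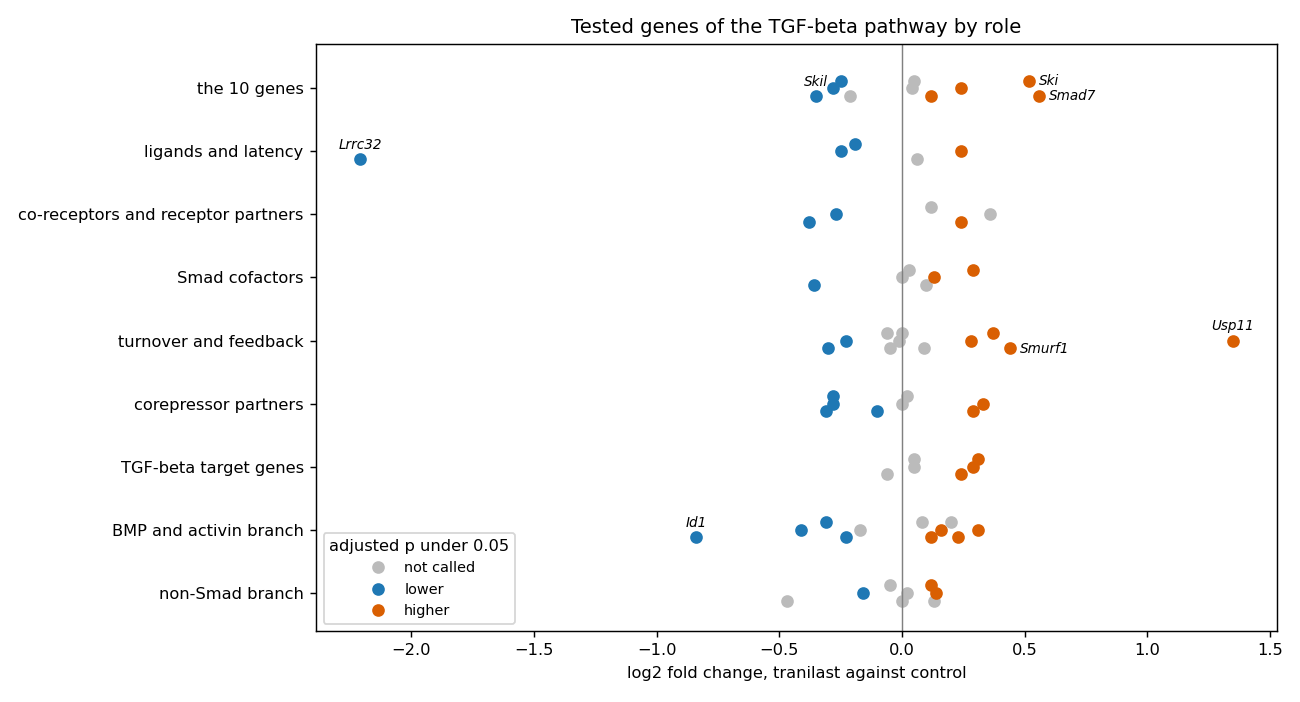
Log2 fold change, tranilast against control (4 libraries each), of tested genes by role in the pathway, coloured by whether it passed an adjusted p of 0.05. Vertical spread within a role only separates the points. Most values lie between -0.5 and 0.5, and Lrrc32 at -2.21, Id1 at -0.84, Usp11 at 1.35, Smad7 at 0.56 and Ski at 0.52 lie outside that range.

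Macrophage genes moved beside the members. Of the 9 tested markers the largest changes were those of the Fc receptor gene Fcgr1, which fell from 97.8 ± 18.9 to 36.5 ± 5.24 CPM (log2 fold change -1.42, edgeR adjusted p = 5.1e-09), and the chemokine receptor gene Ccr2, from 4.88 ± 0.362 to 2.73 ± 0.641 CPM (-0.84, edgeR adjusted p = 0.00107). Spi1, the macrophage lineage factor, fell from 364 ± 11.3 to 275 ± 7.05 CPM (log2 fold change -0.40, edgeR adjusted p = 3.2e-09), Itgam fell by 0.28 (edgeR adjusted p = 2.8e-06), Cx3cr1 by 0.25 (edgeR adjusted p = 2.4e-07), Csf1r by 0.16 (edgeR adjusted p = 6.8e-06) and Lyz2 by 0.13 on the log2 scale (edgeR adjusted p = 0.00102), while Cd68 rose by 0.16 (edgeR adjusted p = 2.0e-04) and Adgre1 by 0.21 (edgeR adjusted p = 0.00205). Their part in the changes of the members was not tested.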

How the data were processed

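RNA was measured in 8 libraries, 4 control and 4 tranilast, grouped by their titles. Per the labels and the study's methods, the authors extracted total RNA with TRIzol, enriched poly-A RNA and sequenced it on an Illumina instrument, and the labels and methods name different models. The authors deposited 1 table with an estimated count and an FPKM value (fragments scaled by transcript length and depth) per gene and library, in which 87.4 to 89.7% of the nonzero estimated counts were whole numbers to within 1e-9. The aligner, the counting program, their versions and the genome build are not given in the sources used here, nor is strand. The table holds no row without a gene symbol. Coordinates come from GENCODE M21 on GRCm38, matched by Ensembl identifier, and promoters from RefSeq.

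Estimated counts were rounded and tested with edgeR 4.0.16 in R 4.3.3 (filterByExpr by group, TMM factors, quasi-likelihood test, Benjamini-Hochberg adjustment over 10770 genes). CPM was computed on TMM-scaled library sizes, and the exact permutation test used log2(CPM + 0.1). FPKM served only to compare levels between genes and, as log2(FPKM + 1) and log2(FPKM + 0.1) with limma 3.58.1, as an alternative, since it is not a count. Further alternatives were RLE and upper-quartile factors, library size alone, limma-voom, DESeq2 1.42.0, a filter of 10 counts in each library, testing without a filter, a replicate block, leaving out each library, and, added after seeing the data, a loess offset (span 0.5) on GC content and length, which 10753 genes had. The pipeline was also run on simulated data in which far fewer genes changed than were called here. That run does not show how the scaling behaves under changes this broad. The common coefficient of variation between libraries, beyond counting error, was 5.09% (edgeR), and it may be technical.

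The members, gene lists and markers were chosen with earlier results of these data known. Named are all members, all detected target and qPCR panel genes, from each other pathway list the called genes with the 3 highest and 3 lowest log2 fold changes, and genes whose role is stated as absent or at the floor. Crebbp, Pmepa1, Nedd4l, Rnf111, Ncor1, Tgfb3, Eng, Acvrl1 and the macrophage genes were named after their values were seen. Some genes of these lists are counted but their values are not reported here. The floor of 3 counts covers counting error only.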

Additional observations from a re-analysis of the deposited data

Results flagged for a closer look

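Within each group of 4 libraries, a library was singled out where its gap to the nearest of the others, divided by the group's range, passed Dixon's 95% critical value for 4 values. This happened in 8 of 96 groups, and chance gives about 1 in 20. Control replicate 4 had 103 CPM of Ski, where the other control libraries had 90.9 to 92.7. Control replicate 1 had 184 CPM of Skil (others 173 to 174). Tranilast replicate 1 had 88.6 CPM of Itgb5 (others 75.8 to 77.7) and 70.7 CPM of Smad5 (others 75.3 to 75.7). Control replicate 2 had 291 CPM of Fkbp1a (others 274 to 276), 29.9 CPM of Gps2 (others 34.9 to 35.2) and 121 CPM of Map3k7 (others 111 to 112). Control replicate 4 had 44.6 CPM of Tgfbrap1 (others 40.3 to 40.9). The calls of these 8 genes stayed past the threshold when the library in question was left out.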

How the results depend on the processing

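Over 19 alternatives, 5618 to 6506 genes were called against 6143, 5 to 8 members against 7, and 32 to 43 other pathway genes against 37. The log2 fold changes of Tgfb1 (-0.30 to -0.13), Tgfbr1 (0.22 to 0.36), Tgfbr2 (-0.41 to -0.16), Ski (0.45 to 0.63) and Skil (-0.38 to -0.17) kept their direction and call in all 19.

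Smad2 was not called with RLE factors (0.12), DESeq2 (0.12), no filter (0.11), the replicate block (0.12, edgeR adjusted p = 0.0513) or the GC and length trend removed (0.01), and leaving out 1 library gave 0.07 to 0.14. Smad7 was not called with DESeq2 (0.56), limma-voom (0.52), log2 FPKM plus 1 (0.14) or plus 0.1 (0.29), the replicate block (0.54, edgeR adjusted p = 0.0634) or the GC and length trend removed (0.48), and leaving out 1 library gave 0.36 to 0.66. Smad4 was called with upper-quartile factors (0.11), library size alone (0.16) and log2 FPKM plus 1 or plus 0.1 (0.14 each), and turned to -0.01 with the GC and length trend removed, where Smad3 turned to -0.002, Junb to -0.02 and Smad6 was called (-0.29). Bhlhe40 turned to 0.004 with upper-quartile factors, 0.05 with library size alone and 0.03 with either FPKM scale. Tbl1xr1 turned to 0.07 and 0.08 on the FPKM scales and Sin3a to 0.01 with library size alone. Snai2 turned to -0.19, -0.05 and -0.24 without control replicate 2, control replicate 3 and tranilast replicate 2, in a range of -0.24 to 0.33 over the left-out libraries. The scarce Lrrc32 and Usp11 kept their calls at -0.34 and 0.58 with log2 FPKM plus 1. Snai2 and Lrrc32 gave no value with at least 10 counts in every library. Apart from what the settings themselves change, the cause was not tested.

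Libraries of the same number did not deviate together (r from -0.0556 to 0.107, own number highest in 0 of 4), so no sign of pairing was seen. With 4 libraries per group this check cannot exclude a weak pairing. The replicate block left 6009 genes called. Among the members it lost the calls of Smad2 and Smad7. At these depths Smad7, Lrrc32, Usp11 and Snai2 rest on few counts.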

Other observations

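The deposited counts and FPKM of the same gene did not always keep 1 proportion across the 8 libraries, although FPKM is a count divided by length and depth. The highest count per FPKM over the lowest, after depth, was 1.62 for Smad7, 1.51 for Smad3, 1.18 for Smad2, 1.16 for Skil and 1.14 for Tgfbr1, against 1.01 for Ski, less for Tgfb1 and Smad6, and a median of 1.04 over genes with at least 100 counts in every library. Changes in the transcript length used for each library would move this ratio, and the table gives no length per library, so this was not tested.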
